A study of Homo sapiens with 12 samples.

Results

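CM10, an inhibitor of the ALDH1A enzymes, was compared with its own control libraries. This comparison used 6 of the 12 RNA sequencing libraries of the series, CM10 replicates 1 to 3 and CTRL_CM10 replicates 1 to 3. Genes were kept when they reached at least 1 TPM (transcript share normalised for length and library total) in at least 3 of these 6 libraries, which left 12529 of 18665 listed genes. All 6 libraries carry the label HT29, a line of human colon carcinoma cells. According to the methods of the study, cells were exposed to CM10 at 10 µM for 2 h. The labels give the controls as CTRL (CM10) and name no vehicle. The other 6 libraries belong to a ZBTB7B hairpin experiment and enter here only as levels set beside those of CM10. No source states that the replicates of a group were separate cultures, so every p-value below covers the spread between these libraries alone, which may be technical. The labels' extraction text speaks of tissue samples.

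ALDH1A enzymes oxidise retinaldehyde to retinoic acid. Retinoic acid binds the nuclear receptors RAR and RXR, which then switch target genes on or off. High ALDH1A activity is widely used as a mark of stem-like cells in epithelial tumours, colon carcinoma included. An inhibitor acts on the enzyme protein, so the RNA of the ALDH1A genes is a separate readout from the activity that CM10 blocks.

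Before the results, the libraries themselves need description, because they differed within their groups. Genes above 0 TPM numbered 13051 in CM10 replicate 1 but 8493 and 9400 in replicates 2 and 3, against 13237 to 14627 in controls. Of the genes tested, 859, 4523 and 4177 were listed at 0 in CM10 replicates 1 to 3, and 238, 1083 and 532 in the controls. Genes that every cell uses were among them: PSMB7, a core subunit of the proteasome, had 21.58 TPM in CM10 replicate 1 but 0 in the other CM10 libraries. A value of 0 in these tables is therefore given as listed at 0 and no more. Genes of the MTRNR2L family, nuclear near-copies of mitochondrial ribosomal RNA, took between 0.283% and 2.78% of TPM in CM10 libraries and 5.62%, 73.8% and 46.0% in controls 1 to 3. The ranks of genes in CM10 replicate 1 correlated with those in control replicate 1 (Spearman rho across genes 0.58) more than with those in CM10 replicate 3 (0.467). Within groups rho ran from 0.467 to 0.671 for CM10 and from 0.649 to 0.748 for controls, and genes are not independent replicates.

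Markers of the labelled cell type were low in most libraries, and markers of other tissues reached higher levels in some. CDX2, the intestinal homeobox factor, was at 1.14 TPM in CM10 replicate 1, listed at 0 in replicates 2 and 3, and at most at 1.38 TPM in controls. CDX1, FABP1 and GPA33 were listed at 0 in all 3 CM10 libraries, while FABP1 had 33.09 and 19.64 TPM in control replicates 1 and 2. Control replicate 2 had the highest colon levels, with 326.37 TPM of LGALS4, 159.85 TPM of PHGR1 and 47.17 TPM of CEACAM5. Of 14 colon epithelial markers, 5 reached 10 TPM in any CM10 library and 5 in any control. By contrast, all 9 markers of gastric chief and parietal cells reached 10 TPM in a CM10 library, and 8 did so in a control. The stomach pepsinogen precursor PGA3 was at 170.54, 58.01 and 1477.29 TPM with CM10 and at 32.97, 19.55 and 32673.12 TPM in controls. Desmin (DES), a muscle filament, was at 2220.95, 991.96 and 5.04 TPM with CM10 and at 102.05, 4.41 and 314.98 TPM in controls. PGA3 and DES were not called, but the pepsinogen gene PGA4 was called higher, at 248.03, 20.09 and 1625.69 TPM with CM10 and at 7.18, 0.1 and 0 TPM in controls. Reads of the near-identical PGA3, PGA4 and PGA5 may be split between them. None of the 8 smooth muscle or 6 gastric surface markers was called by limma. The libraries are named below by their labels, and the part of this tissue signal in the results was not tested.

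Across the 12529 genes, 4003 (31.9%) differed between CM10 and control libraries by limma at an adjusted p under 0.05 (Benjamini-Hochberg). Of these, 1705 (13.6% of genes tested) were higher and 2298 (18.3%) were lower with CM10. Changes were large where called: the median log2 fold change was 3.93 among genes called higher and -2.97 among genes called lower. All fold changes are on the scale of log2(TPM + 1), which understates the change of genes at low levels. The median gene stood at -1.004, so most genes tested appear lower, whether called or not. This is no uniform offset: the median moved with the scaling and ran from -2.33 to 1.01 between classes of 3′ UTR length, as given below. Its part in the change of a single gene was not tested. No gene met the stricter thresholds of the study, a log2 change above 1 with an adjusted p under 0.001, and 5972 genes had an unadjusted p under 0.05.

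**Figure D1:**
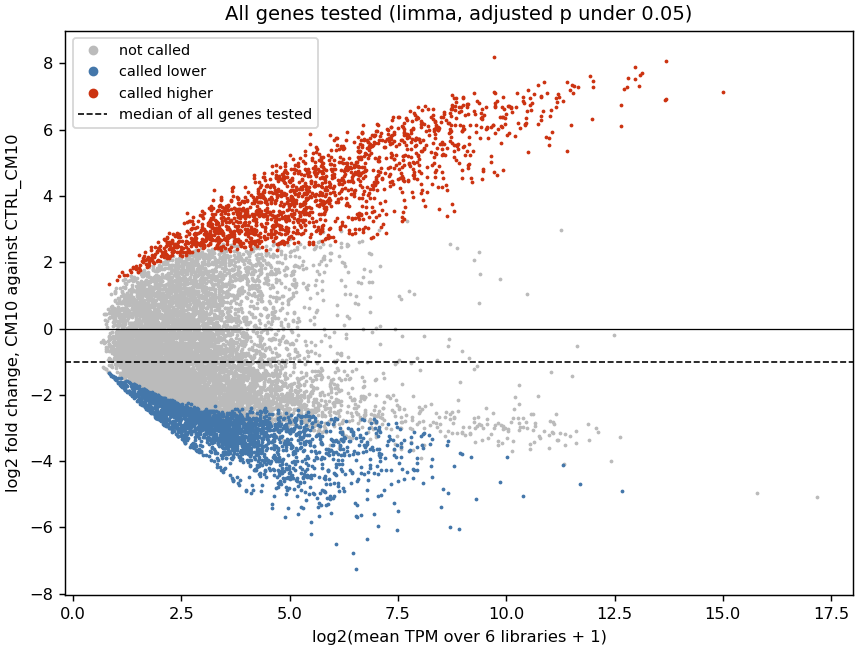
Each point is a gene tested, with log2 of its mean TPM over the 6 libraries plus 1 on the x axis and its log2 fold change with CM10 on the y axis; red and blue mark the 1705 genes called higher and the 2298 called lower. The dashed line is the median gene at -1.004, and the rises reach 8.20 while the falls reach -7.26.

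Genes called higher and genes called lower differed in how often they were listed at 0. Among the 5506 genes above 0 TPM in all 6 libraries, 1300 (23.6%) were called higher and 262 (4.76%) lower. That requirement itself tends to remove falls, since CM10 replicates 2 and 3 listed 36.1% and 33.3% of the genes tested at 0. Most genes called lower were thus listed at 0 somewhere. Of the 357 genes listed at 0 in all 3 CM10 libraries, 351 were called lower, and 14 genes were listed at 0 in all 3 controls. The filter shaped this, as the 357 genes could pass it only with at least 1 TPM in all 3 controls. They were part of 571 genes that passed it through the controls alone, of which 478 were called lower. Another 148 genes passed through CM10 alone, of which 106 were called higher.

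The counts rested on single libraries. Leaving out a CM10 library gave 5776 calls without replicate 1, 1726 without replicate 2 and 2289 without replicate 3. Leaving out a control gave 2181 without replicate 1, 2742 without replicate 2 and 1257 without replicate 3. All 4003 genes kept their sign in each of these fits. Of 102 called genes followed one by one, 60 lost the call without at least 1 library, 52 of them without CTRL_CM10 replicate 3. RAB3B, PNO1, MT1E, RPS28, GCLM and CD74, described below, were among these 52. The split moved with the scaling: quantile normalization gave 2326 genes higher and 1862 lower (median gene -0.27), and leaving out the MTRNR2L genes gave 1632 higher and 5550 lower (median gene -1.72).

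The 10 genes with the largest rises, among those above 0 TPM in every library, moved from modest levels in controls 2 and 3 to some of the highest levels in the data with CM10. RAB3B, a GTPase of secretory vesicles, was at 24202.24, 22739.48 and 29272.71 TPM in CM10 replicates 1 to 3. In the controls it was at 2821.87, 8.11 and 31.08 TPM (log2 fold change 8.07, SE 1.98, limma adjusted p = 0.00756). The CM10 libraries lay close together, while control replicate 1 stood far above the other controls.

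PNO1, which takes part in assembly of the small ribosomal subunit, was at 18651.11, 12563.59 and 15739.28 TPM with CM10 and at 1532.18, 5.53 and 27.23 TPM in controls (log2 fold change 7.88, SE 1.83, limma adjusted p = 0.00587). P4HA2, a prolyl hydroxylase of collagen, was at 16438.55, 14983.35 and 20169.89 TPM with CM10 and at 2113.86, 8.68 and 25.5 TPM in controls. INMT, which methylates indole amines, was at 18728.6, 13400.81 and 18296.63 TPM with CM10 and at 1730.63, 9.02 and 31.97 TPM in controls. The same library order held in each of these genes, with control replicate 1 highest of the controls and replicate 2 lowest.

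BCDIN3D, an RNA methyltransferase, rose from 767.98, 3.5 and 15.48 TPM in controls to 9126, 6070.38 and 7657.77 TPM with CM10. GEMIN6, a member of the SMN complex that assembles splicing particles, rose from 277.55, 2.69 and 8.24 TPM to 3803.16, 3447.1 and 3695.55 TPM (log2 fold change 7.43, limma adjusted p = 0.00347). SLC26A5, which encodes prestin, the motor protein of outer hair cells, rose from 498.12, 3.31 and 11.64 TPM to 5574.81, 4348.37 and 5744.61 TPM. These genes have no shared tissue or pathway that the lists used here record. FAM110D, MBOAT1, an acyltransferase of lysophospholipids, and MANEAL, an endomannosidase-like protein, were called with log2 fold changes of 7.57, 7.54 and 7.47.

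Among the genes that rose, the most abundant was CCL5, a chemokine that draws T cells, at 76121.44, 51472.17 and 63267.62 TPM with CM10. In controls CCL5 was at 6574.33, 49.02 and 276.07 TPM (log2 fold change 7.13, SE 2.27, limma adjusted p = 0.0266). The CCL5 call was lost with no filter (limma adjusted p = 0.0738), with a pseudocount of 0.1 (0.0842), without CTRL_CM10 replicate 2 (0.260) and without CTRL_CM10 replicate 3 (0.279). The mitochondrial fusion GTPase MFN1 rose by 6.93 and CYB5R3, a cytochrome b5 reductase, rose by 6.89 on the log2 scale. Both calls were lost with a pseudocount of 0.1 (limma adjusted p = 0.0527 and 0.0522). They were also lost without CTRL_CM10 replicate 2 (0.125 and 0.131) and without CTRL_CM10 replicate 3 (0.202 and 0.183).

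**Figure D2:**
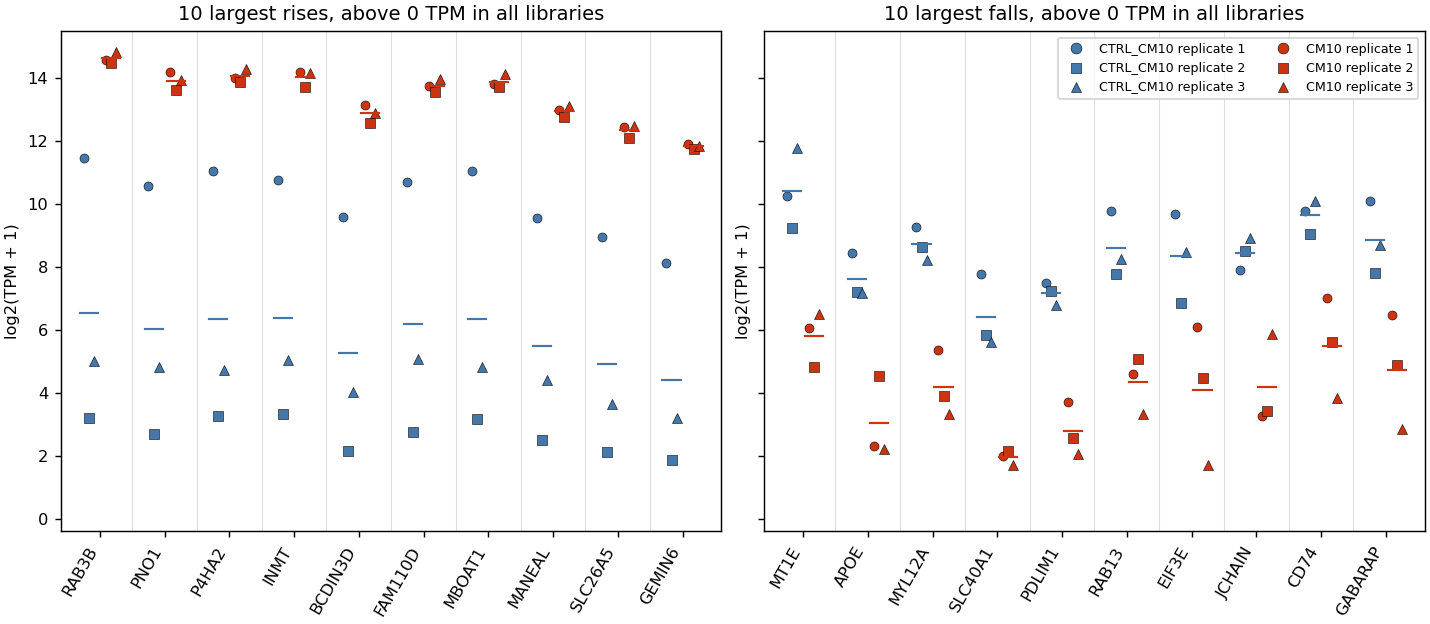
Each point is the log2(TPM + 1) of a gene (x axis) in a library, red for CM10 and blue for CTRL_CM10, with a marker shape for each replicate number and a bar at the group mean. On the left, control replicate 1 lies between the CM10 libraries and controls 2 and 3 for all 10 rising genes; on the right, every CM10 library lies below all 3 controls for the 10 falling genes.

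The rising genes were also compared with each other, as a percent of their own CM10 mean in each library. For the 10 genes, the level in control replicate 1 was 7.61% to 14% of the mean CM10 level. In control replicate 2 it was 0.0319% to 0.0737%, and in control replicate 3 it was 0.122% to 0.253%. Over all 145 genes called higher with a CM10 mean of at least 1000 TPM, the median was 95.8%, 94.8% and 108% of the CM10 mean in CM10 replicates 1 to 3. The matching medians in controls 1 to 3 were 10.3%, 0.146% and 0.54%. From the 10th to the 90th percentile the 145 genes spanned 8.5% to 15.6% in control replicate 1, 0.057% to 0.647% in replicate 2 and 0.246% to 1.69% in replicate 3, so they kept closer proportions in replicate 1 than in the others. Genes called higher together took 82.5%, 83.7% and 91.1% of TPM in CM10 libraries, and 9.91%, 0.38% and 1.05% in controls. These genes were chosen by their change in the same libraries, so the proportions are a description.

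The same 10 genes reached like levels in libraries that had no CM10. In the ZBTB7B hairpin experiment, RAB3B was at 27239.3, 116.06 and 18929 TPM in hairpin replicates 1 to 3 and at 17.64, 2.33 and 3.44 TPM in their controls. GEMIN6 was at 2636.76, 14.24 and 1705.97 TPM in the hairpin libraries and at 8.96, 4.59 and 5.56 TPM in their controls. Hairpin replicates 1 and 3 thus stood near the CM10 libraries in these genes, and hairpin replicate 2 did not. The tables were scaled separately within each library, and no test was made across the experiments.

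The falling genes above 0 TPM in every library included metal-binding, lipid-carrying, cytoskeletal and immune genes. MT1E, a metallothionein that binds zinc and copper, was at 1207.57, 603.4 and 3523.11 TPM in controls and at 65.76, 27.25 and 90.44 TPM with CM10 (log2 fold change -4.62, SE 1.24, limma adjusted p = 0.0123). SLC40A1, which encodes the iron exporter ferroportin, was at 220.33, 56.22 and 47.92 TPM in controls and at 3.01, 3.48 and 2.26 TPM with CM10 (log2 fold change -4.46, SE 0.93, limma adjusted p = 0.00391). The controls of both genes spanned a wider range than the CM10 libraries.

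APOE, the lipid carrier, fell from 348.05, 146.91 and 142.98 TPM in controls to 3.98, 22.44 and 3.66 TPM with CM10. PDLIM1, an adaptor of actin stress fibres, fell from 179.29, 148.22 and 109.27 TPM to 12.22, 4.88 and 3.18 TPM. MYL12A, a regulatory light chain of non-muscle myosin, fell from 616.15, 399.25 and 298.65 TPM to 39.68, 14.03 and 9.13 TPM. Full separation of the groups was part of how these genes were chosen. RAB13, a junctional GTPase, fell by 4.27, EIF3E, a subunit of an initiation factor, fell by 4.26, and GABARAP, an autophagosome protein, fell by 4.13. The abundant genes TMSB10, which binds actin monomers, and ACTG1, cytoplasmic gamma actin, fell by 4.12 and 3.88. The TMSB10 call was lost with no filter (limma adjusted p = 0.0822), with a pseudocount of 0.1 (0.0719), with the replicate block (0.0588) and with any library but CTRL_CM10 replicate 1 left out. The ACTG1 call was lost without CM10 replicate 2, CM10 replicate 3 or CTRL_CM10 replicate 3.

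Of the ALDH1A genes, ALDH1A1 was called and ALDH1A3 was not, and the difference between them was not tested. ALDH1A1, on chromosome 9 at 75515587 to 75695358 (GRCh37), was at 110.1, 110.22 and 171.95 TPM in controls and at 6.95, 11.14 and 12.67 TPM with CM10 (log2 fold change -3.55, SE 0.93, limma adjusted p = 0.0107). The lowest control was well above the highest CM10 library. The call was lost without CM10 replicate 2 (limma adjusted p = 0.0620) and without CTRL_CM10 replicate 3 (limma adjusted p = 0.0561). ALDH1A3 was at 54.78, 10.63 and 2.59 TPM in controls and at 2.88, 3.58 and 9.3 TPM with CM10, groups that overlapped (log2 fold change -1.22, limma adjusted p = 0.34). ALDH1A2 was listed at 0 in 2 CM10 libraries and 1 control, reached at most 3.82 TPM, and was not tested.

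Of the wider aldehyde dehydrogenase family, 13 of 18 listed genes were tested, and 3 (23.1%) rose and 2 (15.4%) fell. Of all genes tested, 13.6% rose and 18.3% fell. The mitochondrial ALDH6A1, which degrades valine and thymine products, rose from 138.74, 8.83 and 28.72 TPM to 1592.79, 2699.39 and 1997.95 TPM (log2 fold change 5.90, limma adjusted p = 0.00443). ALDH5A1, of GABA breakdown, rose by 3.99, and ALDH1B1, of the mitochondrial matrix, rose by 2.91. ALDH1A1 and the proline synthesis enzyme ALDH18A1 fell. The family median was -0.62 and changed sign to 0.00090 after quantile normalization, so no direction is given for the family.

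Among genes of retinoid handling and response, 18 of 29 were tested, 3 rose and 5 fell. These shares, 16.7% and 27.8%, stand beside 13.6% and 18.3% of all genes. LRAT, which esterifies retinol, and RDH10 and RDH13, of the retinol dehydrogenase family, rose. RDH13 was at 194.95, 427.76 and 282.9 TPM with CM10 and at 21.78, 1.62 and 2.09 TPM in controls (log2 fold change 5.66, limma adjusted p = 0.00344). The binding proteins CRABP2 and FABP5, the receptors RARG and RXRB and the retinoid-responsive PLAAT4 fell. FABP5 was at 170.09, 106.08 and 189.57 TPM in controls, and with CM10 at 7.89 and 44.76 TPM in replicates 1 and 2 but at 0 in replicate 3. With 1 library left out, 1 to 3 of these genes rose and 0 to 10 fell.

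**Figure D3:**
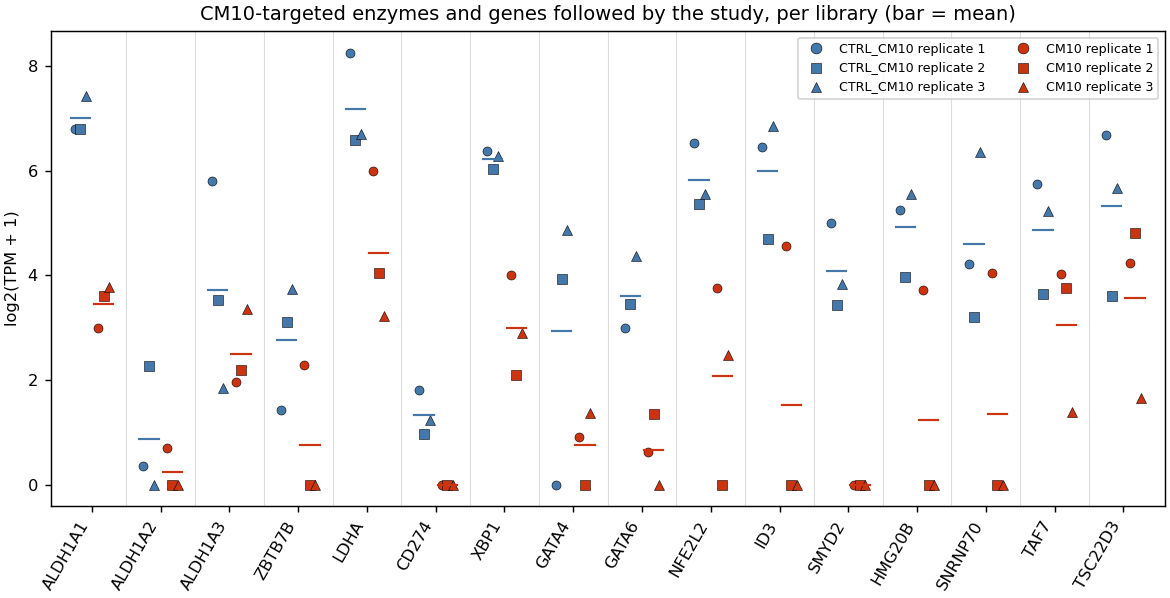
Log2(TPM + 1) of the 3 ALDH1A genes and of genes the study followed (x axis) in each CM10 (red) and CTRL_CM10 (blue) library, with a marker shape for each replicate number and a bar at the group mean. ALDH1A1 and XBP1 separate the groups with every library above 0, whereas SMYD2 and CD274 lie at 0 in all 3 CM10 libraries.

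The study followed ZBTB7B, LDHA, CD274, GATA4 and XBP1 further. XBP1, which drives genes of endoplasmic reticulum folding, was at 82.25, 64.26 and 77.15 TPM in controls and at 15.09, 3.31 and 6.47 TPM with CM10. Its log2 fold change was -3.23 (SE 0.93, limma adjusted p = 0.0170), and the call was lost without CM10 replicate 2 (limma adjusted p = 0.124) and without CTRL_CM10 replicate 3 (limma adjusted p = 0.0672). LDHA, which converts pyruvate to lactate, was at 303.51, 94.88 and 103.06 TPM in controls and at 63.03, 15.51 and 8.41 TPM with CM10. Its groups did not overlap, yet it missed the threshold (log2 fold change -2.75, SE 1.06, limma adjusted p = 0.0536). LDHA passed with a mean of at least 10 TPM required (limma adjusted p = 0.0429), with no variance trend (0.0383), after quantile normalization (0.0104), without the MTRNR2L genes (0.00661) and without CM10 replicate 1 (0.0305). ZBTB7B, a repressor with zinc fingers, was at 1.7, 7.65 and 12.43 TPM in controls, and with CM10 at 3.89 TPM in replicate 1 but at 0 in the others (limma adjusted p = 0.0863). ZBTB7B passed without CM10 replicate 1 (limma adjusted p = 0.0193), without the MTRNR2L genes (0.0379) and with the replicate block (0.0457). CD274 (PD-L1) had 2.51, 0.95 and 1.35 TPM in controls and 0 in every CM10 library, too low to be tested. The study chose these genes, so they are not independent of its question.

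Of 15 candidate regulators for which the study had PCR primers, 7 fell and none rose, at a median log2 fold change of -2.61. The 7 were XBP1, GATA6, HMG20B, NFE2L2, SNRNP70, ID3 and SMYD2. GATA6, an endodermal factor, was at 6.96, 10.01 and 19.78 TPM in controls, and with CM10 at 0.55 and 1.54 TPM in replicates 1 and 2 but at 0 in replicate 3. NFE2L2, which encodes the antioxidant regulator NRF2, was at 91.53, 40.17 and 46.16 TPM in controls, and with CM10 at 12.56 and 4.58 TPM in replicates 1 and 3 but at 0 in replicate 2. SMYD2, a lysine methyltransferase, was at 31.21, 9.78 and 13.31 TPM in controls and listed at 0 in all 3 CM10 libraries. The other 8 did not pass, and TAF7 and TSC22D3 had groups that overlapped. The study chose this list too, and 1 to 11 of its members fell with 1 library left out.

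Of 42 gene lists with at least 8 members tested, 12 had no member called higher by limma, and 10 of these had none at an unadjusted p under 0.05 either, while the most in any was 2. The count of each list stands beside the 13.6% of all genes tested that rose and the 18.3% that fell. Of 30 genes of the AKT-mTOR pathway, 10 fell and none rose (median log2 fold change -2.11). RPS6KB2, a kinase of ribosomal protein S6, was at 23.32, 12.32 and 24.09 TPM in controls and listed at 0 in all CM10 libraries. The number that fell was 1 to 15 with 1 library left out. Of 18 genes of the SUMO pathway, 2 rose and 2 fell (11.1% each), below the shares of all genes. PIAS2, a SUMO ligase, and SENP2, a SUMO protease, rose, and the modifier SUMO3 was among those that fell. SUMO3 was at 119.32, 34.63 and 52.31 TPM in controls, and with CM10 at 10.99 and 2.23 TPM in replicates 1 and 3 but at 0 in replicate 2. SENP2 was at 68.37, 146.33 and 103.16 TPM with CM10 and at 14.11, 2.39 and 5.74 TPM in controls.

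In carbon metabolism, most glycolytic and TCA cycle genes did not pass the test. Of 25 glycolytic genes, 1 (4%) rose and 3 (12%) fell (median -1.72). Both shares were below the 13.6% and 18.3% of all genes tested. The falls numbered 6 after quantile normalization, 14 without the MTRNR2L genes and 0 to 10 with 1 library left out. GPI, which makes fructose 6-phosphate, rose from 183.99, 21.2 and 32.78 TPM to 1001.72, 1166.72 and 1152.45 TPM, while PFKP, PKM and TPI1 fell. The GPI call was lost without CM10 replicate 2 and without CTRL_CM10 replicate 3. The PFKP call was lost after quantile normalization (limma adjusted p = 0.0889) and with any library but CM10 replicate 1 left out. Of 33 genes of the TCA cycle and pyruvate dehydrogenase, 2 (6.06%) rose and 7 (21.2%) fell (1 to 15 with 1 library left out). PDP2, the phosphatase that activates pyruvate dehydrogenase, rose from 62.21, 1.47 and 8.56 TPM to 855.28, 1335.9 and 881.28 TPM (log2 fold change 6.46). The cytosolic isocitrate dehydrogenase IDH1 was at 32.41, 47.81 and 28.55 TPM in controls, and with CM10 at 2.68 and 4.89 TPM in replicates 1 and 3 but at 0 in replicate 2.

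Among 75 subunits of the respiratory chain and ATP synthase, 31 (41.3%) fell and 3 (4%) rose, at a median of -2.82. Of all genes tested, 18.3% fell and 13.6% rose. NDUFS4, an accessory subunit of complex I, was at 190.25, 42.78 and 59.71 TPM in controls, and with CM10 at 8.01 TPM in replicate 1 but at 0 in the others. COX6B2, the testis form of a complex IV subunit, rose from 14.59, 1.61 and 1.33 TPM to 108.09, 374.56 and 173.45 TPM. The number that fell ranged from 4 to 42 with 1 library left out.

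Genes of protein synthesis had low medians but unequal counts. Of 85 cytosolic ribosomal protein genes, 77 lay lower in every CM10 library than in every control. Yet only 7 (8.24%) passed the test and fell, and 1 (1.18%) rose (median -2.98). Both shares were below the 18.3% and 13.6% of all genes tested. RPS28 was at 1603.31, 376.52 and 724.1 TPM in controls and at 91.52, 98.31 and 18.3 TPM with CM10 (log2 fold change -3.76, SE 1.21, limma adjusted p = 0.0280). The riser was RPS27L, a p53-inducible paralog of RPS27, at 761.54, 880.35 and 893.99 TPM with CM10 and at 103.49, 4.31 and 22.32 TPM in controls. RPS27 itself went from 25389.6, 3522.45 and 6315.88 TPM in controls to 1169.5, 1106 and 476.84 TPM, without a call (limma adjusted p = 0.158). The number that fell was 77 after quantile normalization, 79 without the MTRNR2L genes and 0 to 13 with 1 library left out.

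Of 79 mitochondrial ribosomal protein genes, 33 (41.8%) fell and 2 rose, with 7 to 39 falls when 1 library was left out and 10 calls in all when 2 libraries of each group had to reach 1 TPM. MRPL23 was at 59.48, 14.84 and 148.08 TPM in controls and with CM10 at 0.9 TPM in replicate 1 but at 0 in the others. MRPL48 rose from 126.21, 7.17 and 22.65 TPM to 1068.5, 1040.35 and 1165.77 TPM. Of all genes tested, 18.3% fell and 13.6% rose. Of 69 translation factors 20 (29.0%) fell and 2 (2.90%) rose, and of 23 aminoacyl-tRNA synthetases 9 (39.1%) fell and none rose. With 1 library left out, the falls were 4 to 26 and 0 to 15. EIF4E2, a cap-binding repressor of translation, fell, and EEF2K, the kinase that inhibits elongation factor 2, rose.

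Counts of falls in folding, splicing and degradation lists stand beside the 18.3% of all genes tested that fell. Of 41 proteasome subunits, 20 (48.8%) fell and none rose (median -2.67). PSMB7 was at 131.96, 49.4 and 101.69 TPM in controls. Of 51 spliceosome genes 20 fell and 1 rose, and of 32 heat shock chaperones 10 fell and none rose. HSPE1, the mitochondrial co-chaperonin, was at 259.38, 104.09 and 163.37 TPM in controls, and with CM10 at 31.5 TPM in replicate 1 but at 0 in the others. With 1 library left out, 1 to 27 proteasome, 1 to 24 spliceosome and 1 to 19 chaperone genes fell. Of 33 autophagy genes 10 fell (2 to 18 with 1 library left out) and 1 rose, the kinase ULK2, from 5.84, 1.81 and 1.39 TPM to 32.45, 32.99 and 31 TPM.

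**Figure D4:**
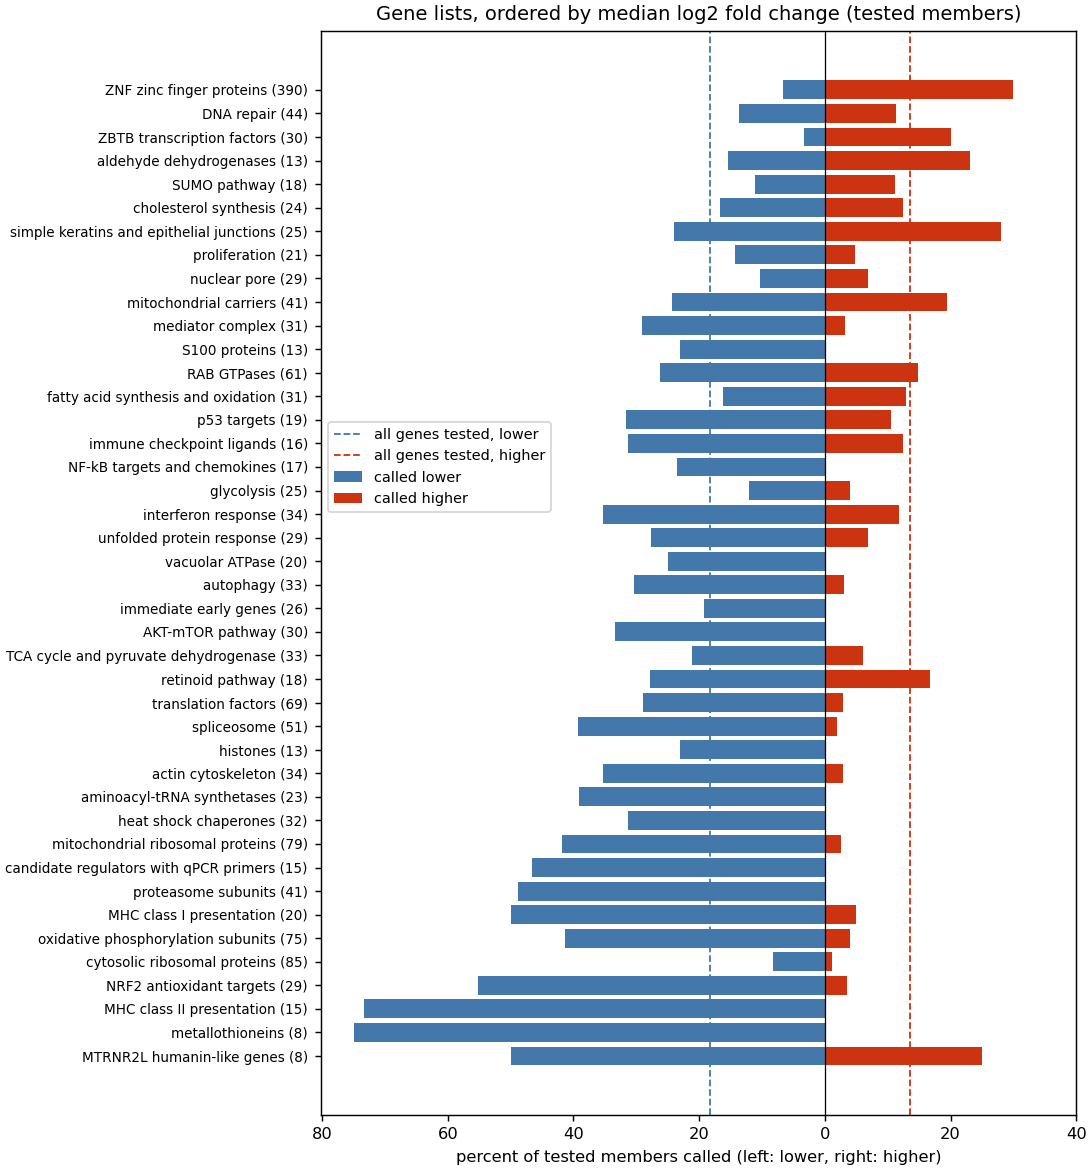
Bars give the percent of tested members of each gene list (number in parentheses) called lower (blue, left) or higher (red, right), ordered by median log2 fold change; dashed lines are the shares over all genes tested, 18.3% and 13.6%. Metallothioneins and MHC class II genes reach furthest to the left, and the ZNF list is the longest bar to the right.

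Stress lists were led by metal and oxidant genes. Of all genes tested, 18.3% fell and 13.6% rose. Of 8 metallothioneins tested, 6 (75%) fell and none rose (median -4.59, with 2 listed at 0 in all CM10 libraries). MT1M was at 24.06, 109.71 and 262.65 TPM in controls and was among those listed at 0. Of 29 targets of NRF2, 16 (55.2%) fell and 1 rose, at a median of -3.00. MGST1, a microsomal glutathione transferase, was at 84.49, 25.75 and 60.64 TPM in controls and listed at 0 in all CM10 libraries. GCLM, the modifier subunit of the enzyme that starts glutathione synthesis, rose from 5.84, 4.16 and 3.25 TPM to 40.6, 48.99 and 38.97 TPM (log2 fold change 3.04, limma adjusted p = 0.0169). With 1 library left out, 2 to 6 metallothioneins and 4 to 17 NRF2 targets fell.

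Of 29 genes of the unfolded protein response, 8 (27.6%) fell and 2 (6.90%) rose, against 18.3% and 13.6% of all genes tested. ERN1, which encodes the sensor IRE1 that splices XBP1 RNA, rose from 2.13, 0.19 and 1.64 TPM to 29.85, 44.61 and 32.14 TPM (log2 fold change 4.07, limma adjusted p = 0.00437). DDIT3, which encodes the stress factor CHOP, was at 73.54, 15.33 and 60.51 TPM in controls, and with CM10 at 2.7 TPM in replicate 1 but at 0 in the others. Of this list 1 to 11 genes fell with 1 library left out, and 2 rose in each case. Of 26 immediate early genes 5 (19.2%) fell and none rose, a share near the 18.3% of all genes, and 0 to 12 fell with 1 library left out. Of 19 p53 targets 6 (31.6%) fell (1 to 6 with 1 library left out) and 2 (10.5%) rose. ZMAT3 was among the latter, from 307.82, 3.43 and 13.37 TPM to 2970.8, 2766.48 and 2966.34 TPM.

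Many genes of antigen presentation fell, and so did several markers of immune cells. Of 15 MHC class II genes tested, 11 (73.3%) fell and none rose, at a median of -3.08. Of all genes tested, 18.3% fell and 13.6% rose. CD74, the invariant chain, was at 869.15, 529.63 and 1085.66 TPM in controls and at 129.51, 48 and 13.35 TPM with CM10 (log2 fold change -4.14, SE 1.196, limma adjusted p = 0.0174). IFI30, a thiol reductase of the endosome, was at 147.4, 80.58 and 56.69 TPM in controls, and with CM10 at 7.16 and 6.73 TPM in replicates 1 and 2 but at 0 in replicate 3. Of 20 MHC class I genes 10 (50%) fell and 1 (5%) rose, the loading factor TAPBP, from 119.17, 7.69 and 38.88 TPM to 945.7, 929.67 and 991.6 TPM. With 1 library left out, 2 to 11 class II and 1 to 14 class I genes fell.

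Of 9 myeloid markers listed, 8 were tested and 5 fell (AIF1, CD14, CD68, FCER1G and TYROBP). AIF1, found in macrophages, was at 205.36, 109.36 and 23.88 TPM in controls, and with CM10 at 8.25 TPM in replicate 1 but at 0 in the others. LYZ, lysozyme, which gastric cells also make, was at 497.9, 4468.43 and 30.37 TPM in controls and at 2896.84, 3339.99 and 3408.21 TPM with CM10. Of 7 markers of B and plasma cells, 3 were tested and 2 fell: JCHAIN went from 239.36, 359.29 and 479.59 TPM to 8.66, 9.74 and 57.14 TPM, and MZB1 was listed at 0 in all CM10 libraries. Of 8 T cell markers 7 were tested, 4 fell and CD3G rose, from 8.09, 0.89 and 2.05 TPM to 14.58, 62.65 and 39.43 TPM. CD3D and CD8A, the latter not tested, were listed at 0 in all CM10 libraries. CD3E was among those that fell, with CM10 at 3.24 TPM in replicate 1 and at 0 in the others. In bulk RNA, fewer cells of a type and less RNA per cell cannot be told apart, and the part of these markers in the fall of MHC class II genes was not tested.

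Other immune lists held calls in both directions, with shares of rises slightly below the 13.6% of all genes tested. Their shares of falls stand beside the 18.3% of all genes. Of 34 interferon response genes, 12 (35.3%) fell (3 to 13 with 1 library left out) and 4 (11.8%) rose (0 to 4). IRF7, the master regulator of type I interferon, was at 5.36, 4.94 and 6.14 TPM in controls and listed at 0 in all CM10 libraries, while the antiviral GTPase MX1 rose from 268.01, 9.37 and 17.25 TPM to 2615.24, 2572.19 and 2998.31 TPM. Of 16 checkpoint ligands and related genes, 5 (31.25%) fell (2 to 7 with 1 library left out) and 2 (12.5%) rose (1 to 3). LGALS9, galectin-9, was at 53.75, 77.59 and 38.5 TPM in controls, and with CM10 at 2.97 and 2.52 TPM in replicates 1 and 3 but at 0 in replicate 2. ICOSLG, a costimulatory ligand, rose from 7.36, 0.97 and 4.96 TPM to 58.71, 169.21 and 71.75 TPM.

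Epithelial and lipid lists held genes that rose and genes that fell, and actin genes that were called mostly fell. Of 25 simple keratins and junction genes, 7 rose (4 to 7 with 1 library left out) and 6 fell (0 to 7). The junction protein MARVELD2 (tricellulin) rose from 41, 1.64 and 2.11 TPM to 343.69, 440.19 and 437.49 TPM. KRT19, a keratin of simple epithelia, was at 8.43, 193.16 and 36.98 TPM in controls, and with CM10 at 5.79 TPM in replicate 3 but at 0 in the others. Of 34 actin cytoskeleton genes 12 (35.3%) fell (1 to 14 with 1 library left out) and 1 rose, the Arp2/3 subunit ARPC5. Of 24 cholesterol synthesis genes 3 (12.5%) rose, CYP51A1 among them, and 4 (16.7%) fell, FDPS among them. Of 31 genes of fatty acid metabolism 4 (12.9%) rose and 5 (16.1%) fell. The shares of both lipid lists were near those of all genes tested, 13.6% and 18.3%. With 1 library left out, 1 to 3 cholesterol genes rose and 0 to 7 fell, and 1 to 5 fatty acid genes rose and 0 to 13 fell. The thiolase ACAA2 led the fatty acid rises (129.75, 19.73 and 6.8 TPM in controls, and 1134.79, 1078.89 and 1222.61 TPM with CM10), and the dehydrogenase ACADM led the falls.

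Proliferation could be read in part only. Of 38 genes listed 21 were tested, of which 1 (4.76%) rose and 3 (14.3%) fell (2 to 6 with 1 library left out). Of all genes tested, 13.6% rose and 18.3% fell. MKI67, TOP2A and CDK1 did not pass the filter on low values. PCNA, the sliding clamp of DNA replication, was at 53.79, 29.11 and 16.89 TPM in controls, and with CM10 at 3.5 TPM in replicate 1 but at 0 in the others. CDT1, which licenses replication origins, rose to 8.37, 4.74 and 7.95 TPM with CM10 from 1.21 TPM in control replicate 2, and was listed at 0 in the other controls. Of 44 DNA repair genes 5 (11.4%) rose and 6 (13.6%) fell, both below the shares of all genes. With 1 library left out, 2 to 8 rose and 1 to 10 fell. POLH, the polymerase that bypasses ultraviolet lesions, rose from 52.39, 2.07 and 4.99 TPM to 494.45, 444.94 and 420.63 TPM.

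The ZNF family is the longest of the lists. ZNF genes encode zinc finger proteins, most of which bind DNA and many of which silence transposable elements. Of 511 listed 390 were tested, 117 (30%) rose and 26 (6.67%) fell, against 13.6% and 18.3% of all genes. The family median was 0.545, and it changed sign to -0.28 when the MTRNR2L genes were left out and libraries rescaled, with 115 rises and 94 falls in that fit. ZNF850 was at 366.93, 357.86 and 335.62 TPM with CM10 and at 21.44, 0.38 and 1.45 TPM in controls (log2 fold change 6.39, SE 1.08, limma adjusted p = 0.00344). ZNF524 was at 20.49, 18.68 and 32.61 TPM in controls and listed at 0 in all CM10 libraries. With 1 library left out, 65 to 132 ZNF genes rose and 5 to 62 fell.

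Of 30 ZBTB genes, the family of ZBTB7B, 6 (20%) rose and 1 (3.33%) fell, against 13.6% and 18.3% of all genes tested. With 1 library left out, 5 to 7 of them rose and 0 to 5 fell. ZBTB8B was at 987.14, 927.72 and 1056.43 TPM with CM10 and at 75.93, 0.61 and 2.75 TPM in controls (log2 fold change 6.998, limma adjusted p = 0.00344). ZBTB33, also known as Kaiso, was at 8.78, 4.05 and 5.97 TPM in controls, and with CM10 at 0.76 TPM in replicate 1 but at 0 in the others. Of 61 RAB GTPases 9 (14.75%) rose, RAB3B and RAB36 among them, and 16 (26.2%) fell, RAB13 among them. Of 41 mitochondrial carriers 8 (19.5%) rose and 10 (24.4%) fell. With 1 library left out, 3 to 10 RAB genes rose and 1 to 26 fell, and 5 to 8 carriers rose and 0 to 16 fell.

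The genes called higher and lower differed in transcript structure. TPM divides by transcript length, so length enters the values that the filter and the test used. The median length of the representative transcript was 4802 bases for genes called higher, 1970 for genes called lower and 3359 for all genes matched. The 3′ untranslated region (UTR) carried most of this: its median length was 2850, 583 and 1422 bases in the same order, against coding lengths of 1402, 1002 and 1359 bases. GC content was 45.5% for genes called higher and 52.4% for genes called lower.

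The change went with the length of the 3′ UTR over its whole range. Of the 1273 genes with a 3′ UTR under 250 bases, 38.5% fell and 2.75% rose, with a median log2 fold change of -2.33. The median was -1.63 for 3′ UTRs from 500 to under 1000 bases (2084 genes) and -0.288 for those from 2000 to under 4000 bases (2884 genes). Of the 1789 genes with a 3′ UTR of 4000 bases or more, 2.63% fell and 32.2% rose, with a median of 1.01. The median 3′ UTR was 2094.5 bases among the 10 genes with the largest rises, with a range of 195 to 11974, and 528 among the 10 with the largest falls, with a range of 146 to 1291. These are descriptions across genes of the same 6 libraries, and genes are not independent replicates.

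**Figure D5:**
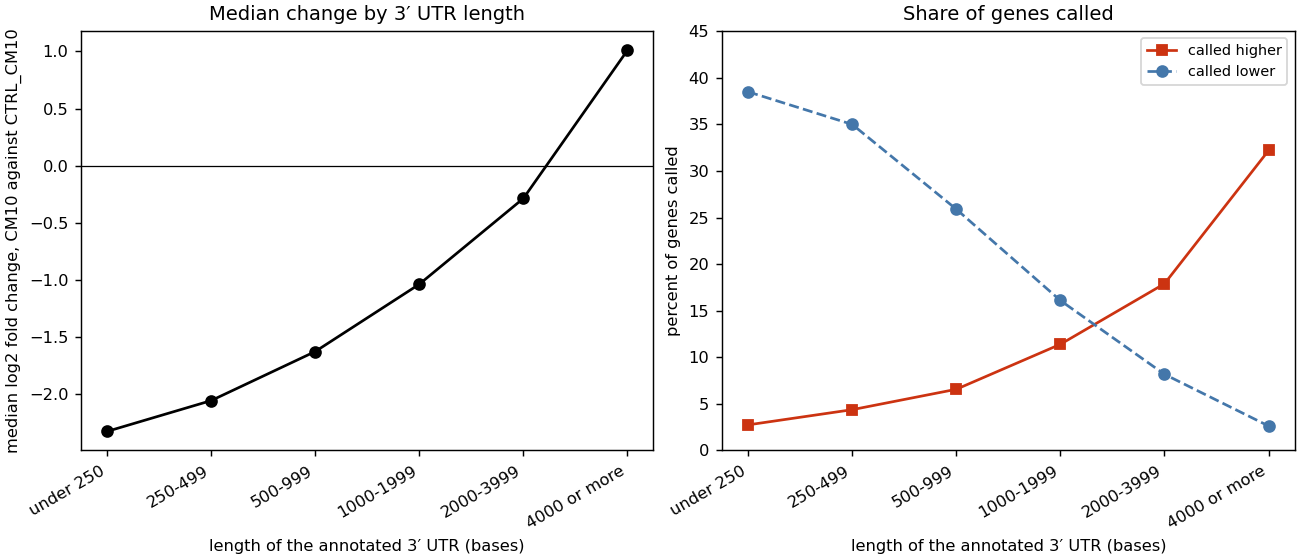
Genes grouped by the length of their annotated 3′ UTR in bases (x axis): median log2 fold change with CM10 (left) and percent of genes called higher (red, solid) or lower (blue, dashed) (right). The median rises from -2.33 in the shortest class to 1.01 in the longest, while the share called lower goes from 38.5% to 2.63%.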

How the data were processed

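RNA from 12 libraries labelled HT29, 3 in each of 4 groups, was sequenced, and the 6 libraries of the CM10 experiment were analysed here. According to the study methods, the authors filtered reads, aligned them to hg19 with HISAT and estimated expression with RSEM; no version of either was found in those sources. The deposited values are TPM per gene: each column sums to the same total, while the headers name no unit. The read depth is unknown, so no counting interval is given, and TPM divides a fixed total among genes, so a large share taken by some lowers the others.

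Genes with at least 1 TPM in at least 3 of 6 libraries were tested by limma 3.58.1 (R 4.3.3) on log2(TPM + 1), with group as the only term, an empirical Bayes variance trend and Benjamini-Hochberg adjustment over all genes at 0.05. The fit was also run on simulated data, with independent noise for each gene of equal spread in both groups. That simulation lacked the differences between whole libraries described above, so it cannot show how the fit handles them. The labels do not say whether replicate numbers pair the samples, and the main fit did not pair them. Transcript features came from GENCODE v44lift37 (GRCh37, the build hg19), with 1 representative transcript a gene, and 12311 of 12529 genes matched.

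The members and the 44 gene lists and 12 marker lists were chosen with earlier results of these data known. Named genes were the study's genes, ALDH1A enzymes and primer-list regulators; the 10 largest changes per direction among genes called, above 0 in all 6 libraries, fully separated and with a mean that reached 10 TPM where higher; the called member with the smallest p per direction in each list with at least 3 calls; the 5 most abundant called genes per direction; and the 5 most abundant per group. MTRNR2L genes were named under the last rule only. Other genes named as members of a list's count or as markers were chosen after their values were seen. Some genes and sequences are not reported here. Alternatives were other normalizations, pseudocounts, filters and variance models, a replicate block, and each library left out in turn.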

Additional observations from a re-analysis of the deposited data

How the results depend on the processing

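The 4003 genes called fell to 2108 with at least 1 TPM required in 2 libraries of each group and to 1964 with a pseudocount of 0.1. They rose to 7182 without the MTRNR2L genes. Leaving out a library gave 1257 to 5776 calls, and 0 to 547 genes past the study's thresholds. Those above 0 were 407 without CM10 replicate 3 and 547 without CTRL_CM10 replicate 1. Rises made up 42.6% of calls, and the median gene stood at -1.004. Quantile normalization gave 55.5% (median -0.27) and removal of MTRNR2L genes 22.7% (-1.72). It was 63.6% with the pseudocount of 0.1 and 60.4% with the filter by group. The cause of these shifts was not tested.

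Deviations of same-numbered CM10 and control libraries from their group means had correlations of -0.079, -0.047 and -0.057 across genes. The labels do not say whether the numbers pair the samples. These correlations cannot decide it, as the libraries of a group differed widely. A fit with the replicate number as a block gave 4805 calls and 817 past the study's thresholds, against 4003 and 0 without the block. PGA3, at -0.20, ranged from -2.10 to 3.22 with a library left out. It changed sign when CM10 replicate 1 (0.0586), CM10 replicate 2 (0.83) or CTRL_CM10 replicate 3 (3.22) was removed. No other named gene changed sign under an alternative run. Of 1562 comparisons of a named gene with an alternative, 176 lost the call and 31 gained it. Depth is unknown, so a level of 0 has no limit here, and 3 libraries a group, which differ in tissue markers, bound the precision.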
